A study of Rattus norvegicus with 8 samples.

Results

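The 2 rat microRNAs rno-miR-221 and rno-miR-222 were described across cardiomyocyte arrays of 2 postnatal ages. They were selected by name, through every array spot annotated with either name, which gave 2 of the 677 rat miRNAs, 4 of the 1644 miRNA probes and 40 of the 13540 miRNA spots of each array. Total RNA of cardiomyocytes isolated from rats at P0 (4 samples) and at P10 (4 samples) was labelled with the dye Cy3 and hybridised to 1-colour Agilent arrays. Both ages shared the cell type label, animals of either sex and the mirVana extraction, no treatment or genotype was named, and P10 cells were described in the labels as proliferating more slowly than P0 cells. The series title and design text call the younger age day 1 where the sample labels call it P0, and P0 is used here. The labels do not say whether samples came from separate animals or cultures, so the p-values cover the spread among these 8 samples alone.

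MicroRNAs are short RNAs that guide the silencing complex to messenger RNAs which pair with their seed, a stretch near the 5′ end. miR-221 and miR-222 are transcribed from neighbouring hairpins on the X chromosome, share their seed, and are known repressors of the cyclin-dependent kinase inhibitors p27 (Cdkn1b) and p57 (Cdkn1c), which hold cells out of the cell cycle. They are best known from vascular smooth muscle and endothelial cells and from proliferating cells. Targets were not measured on these arrays.

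The mature sequences are shown because the shared seed sets the common target repertoire of the pair, and because the probes also read bases beyond the seed. They are given 5′ to 3′ from RefSeq (rat assembly GRCr8), with the seed, bases 2 to 8, in capitals.
rno-miR-221-3p: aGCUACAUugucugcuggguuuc
rno-miR-222-3p: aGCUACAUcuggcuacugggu
Both carry the seed GCUACAU, which no other of the 693 mature rat sequences in the RefSeq table carried. The first 8 bases are identical, and 11 of 21 bases are identical when the sequences are aligned from the 5′ end. miR-221-3p has 23 bases and lies at chrX:6023246-6023268 on the plus strand, and miR-222-3p has 21 bases and lies at chrX:6022682-6022702 on the same strand. The hairpins Mir222 (chrX:6022621-6022723) and Mir221 (chrX:6023182-6023290) are 458 bp apart. Both lie within the annotated spans of the long non-coding RNAs LOC120099382 (chrX:5942511-6024221) and LOC120099384 (chrX:6004097-6045038). The nearest protein-coding genes of the annotation, LOC100359876 and Chst7, lie 611721 bp and 1036249 bp away.

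Each miRNA was read by 2 probes with 10 spots each, which are DNA complements of the 3′ part of the mature strand. They are shown because they differ from each other outside the seed, so that either miRNA can be told from its partner. The capital marks the single base that the longer probe has beyond the shorter one.
miR-221 longer probe: gaaacccagcagacaatgtA
miR-221 shorter probe: gaaacccagcagacaatgt
miR-222 longer probe: acccagtagccagA
miR-222 shorter probe: acccagtagccag
The miR-221 probes pair with bases 4 to 23 and 5 to 23 of their target, and the miR-222 probes with bases 8 to 21 and 9 to 21. The longest perfect match of any of these probes to the partner miRNA was 6 bases. Against the other mature rat sequences it was 9 bases for the miR-221 probes (miR-3575) and 8 bases for the miR-222 probes (miR-878). The scanner files place the longer probes at chrX:14935685-14935703 (miR-221) and chrX:14935125-14935137 (miR-222) in the rn4 build.

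Some arrays stood apart in ways that touch every result on the pair. P10 replicates 1 and 2 were nearly the same as each other (SD of the log2 difference 0.0893 over the 70 miRNAs detected on all arrays), as were P10 replicates 3 and 4 (0.189), while arrays of different P10 pairs differed by 0.868 to 0.911. Nothing in the sources used here tells whether the close arrays hold the same RNA, so results are also given with each pair averaged into 1 sample. P0 replicate 1 was dim: its reference signal (the 75th percentile of the 111 probes that every array detected) was 116 intensity units against 580 to 1326 on the other arrays. The arrays shared 1 slide with the ages on different rows, so row and age cannot be told apart. Between 7.06% and 21.1% of probes were detected per array, where a detected probe is one for which the scanner marked a share of at least 0.5 of the spots as well above background. No miRNA spot was saturated.

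miR-221 was detected on all 4 P10 arrays and on none of the P0 arrays. The background-subtracted signal of its longer probe on P0 replicates 1 to 4 was -1.17, 13.1, 6.01 and 9.99 intensity units. On P10 replicates 1 to 4 it was 136, 116, 31.2 and 28.3 units, with a spread between spots of 0.783 to 6.97 units (SD, 8 to 10 spots). Every P10 array was above every P0 array, as held for 20.6% of the 204 miRNAs detected on at least 1 array, and the P10 arrays fell into a bright pair and a dimmer pair. The shorter probe gave -1.22, 6.69, 2.55 and 4.75 units at P0 and 84.4, 72.8, 18.4 and 17.1 units at P10, the same order of the pairs.

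At P0 the miR-221 signal was near that of the negative control spots, which carry no miRNA probe, and stood clearest of them on replicate 2. On P0 replicate 2 the longer probe lay 4.31 SD above the mean of the negative control spots, and 3 of its 10 spots were well above background. On P0 replicates 3 and 4 it lay 0.906 and 2.17 SD above that mean, and on P0 replicate 1 it lay below it (-2.20 SD). On the P10 arrays it lay 49.3, 50.4, 12.8 and 10.9 SD above it. The scanner's looser flag, positive and significant against background, was set for 10 of 10, 9 of 10 and 8 of 8 spots on P0 replicates 2, 3 and 4 and for 0 of 10 on replicate 1. A low P0 level is therefore reported as not well above background, and its size is not resolved by these arrays.

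**Figure D1:**
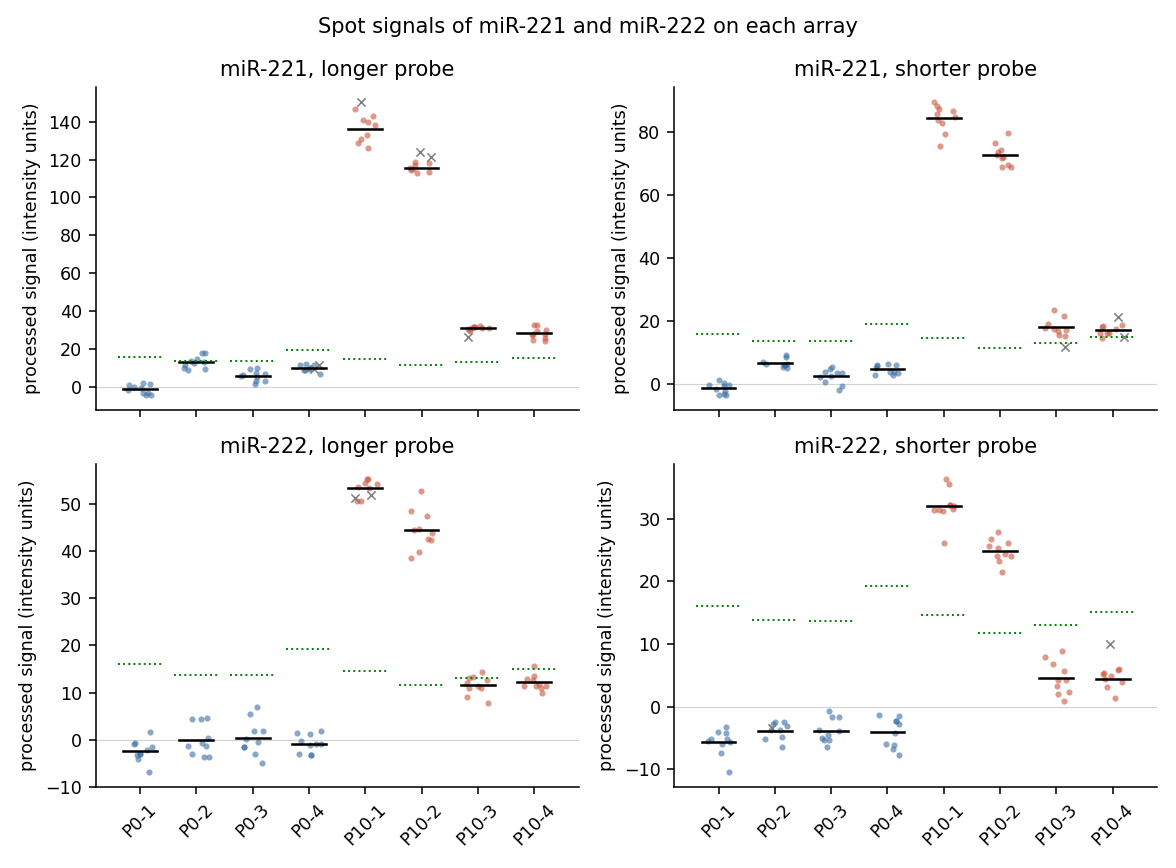
Background-subtracted signal in intensity units (linear axis) of each spot of the 4 probes on each array, named by age and replicate; blue points are P0 and red points P10, grey crosses are spots with an outlier mark that were left out, black bars are means, and green dotted bars mark the lowest signal among detected probes of that array. P10 arrays 1 and 2 stand highest in every panel, and P10 arrays 3 and 4 lie below the green bars for both miR-222 probes.

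Dividing by the reference signal of each array left the same arrangement. The scaled signal of miR-221 was -1.01%, 0.990%, 0.745% and 0.862% of the reference at P0, and 20.9%, 19.97%, 2.44% and 2.23% at P10. The ages did not overlap, although the bright P10 pair was 8.56 to 8.96 times as high as the dimmer pair on this scale. An exact two-sided permutation test on the scaled signal gave p = 0.0286 for each of the 2 miR-221 probes (n = 4 and 4), the smallest value that the 70 arrangements allow. The ages likewise failed to overlap, with P10 higher, for 14.2% of the 204 miRNAs detected on at least 1 array. With each P10 pair averaged into 1 sample the exact test could not go below p = 0.133, and the value for miR-221 was 0.133. Without P0 replicate 1 it was 0.0571, again the smallest possible.

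For the test across all miRNAs, scaled signals below 1.69% of the reference were set to that floor (log2 -5.89) before taking log2. On this scale miR-221 was at the floor on all 4 P0 arrays and at -2.26, -2.32, -5.36 and -5.49 on the P10 arrays. The P10 mean was -3.86 ± 1.81 (SD, n = 4), and the P10 minus P0 difference was 2.03 ± 0.77 (log2, SE). The spread within P10 was nearly as large as the difference, and the adjusted p was 0.132 (limma, Benjamini-Hochberg over 158 tested miRNAs). miR-221 ranked ninth from the top by size of difference among the 158 but stood at rank 33 by p. It did not pass the threshold of 0.05, which 4.43% of tested miRNAs passed with a higher P10 level and 4.43% with a lower one (7 each, or 11 and 0 with no scaling between arrays). With each P10 pair averaged, 0 of 158 miRNAs passed in limma, 26 had an unadjusted p under 0.05, and the adjusted p of miR-221 was 0.244.

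**Figure D2:**
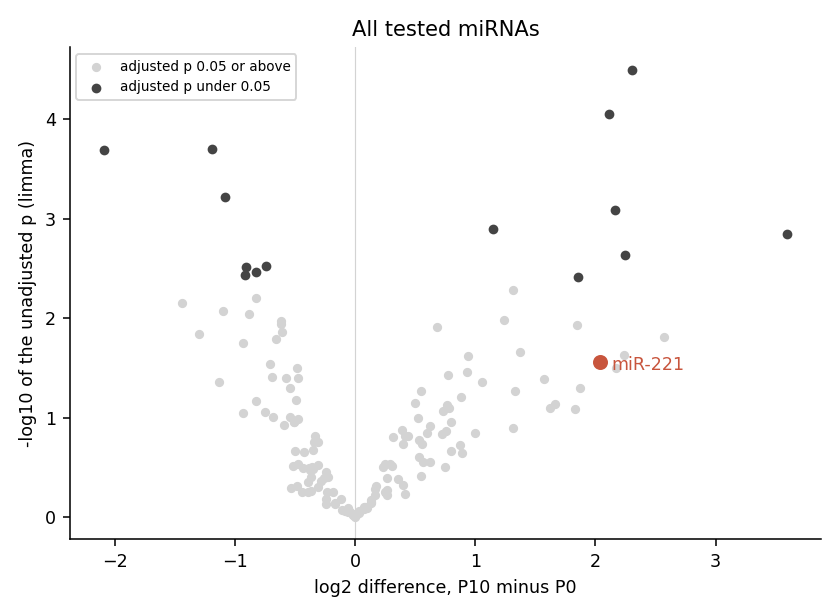
Each point is 1 of the 158 tested miRNAs, with the log2 difference P10 minus P0 on the horizontal axis and -log10 of limma's unadjusted p on the vertical axis; dark points have an adjusted p under 0.05. miR-221 (red, difference 2.03) lies among the larger differences, but 32 miRNAs have a smaller p.

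Because miR-221 was not well above background at P0, its change is also given as a bound. The P10 mean of log2 scaled signal was -3.86 and the P0 limit was -5.30. That limit averaged over arrays whichever was higher, the dimmest detected probe or miR-221 itself. The mean level was thus at least 2.72-fold higher at P10 (limma adjusted p = 0.132 for the floored difference). On P10 replicates 3 and 4 miR-221 lay below that limit, at -5.36 and -5.49. This bound therefore rested on P10 replicates 1 and 2. Without P0 replicate 1, whose lowest detected signal was itself high on the scaled axis, the bound was at least 4.81-fold and the limma adjusted p was 0.0804, in a fit that called 14.9% of tested miRNAs higher. The shorter probe gave bounds of at least 1.66-fold and, without P0 replicate 1, at least 2.94-fold.

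The size of the miR-221 difference depended on which P10 pair was kept. Without P10 replicates 3 and 4 it was 3.44 ± 0.06 (log2, SE; limma adjusted p = 2.27e-06), a setting in which 29.9% of tested miRNAs were called higher. Without P10 replicates 1 and 2 it was 0.71 ± 0.12 (limma adjusted p = 0.0195), and 3.53% were called higher. Each of these fits rests on 2 nearly identical P10 arrays, and the P0 values are all at the floor, so the small standard errors leave out most of the spread between samples. The direction was the same in both, but with P0 at the floor neither difference could be below 0.

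miR-222 was detected on 2 of the 4 P10 arrays and on no P0 array. Its longer probe gave -2.44, -0.0707, 0.417 and -0.855 intensity units on P0 replicates 1 to 4, on each array below the mean of the negative control spots. On the P10 arrays it gave 53.5, 44.6, 11.6 and 12.2 units. All P10 values were above all P0 values, as held for 20.6% of the 204 miRNAs detected on at least 1 array. The same bright and dimmer pairs as for miR-221 appeared. On P10 replicates 3 and 4 only 2 of 10 and 0 of 10 spots were well above background, but all 10 spots of each were positive and significant, and the probe lay 3.37 and 3.71 SD above the negative controls. The shorter probe gave -5.71 to -3.83 units at P0 and 32.1, 24.9, 4.61 and 4.46 units at P10.

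The scaled signal of miR-222 was -2.11%, -0.00533%, 0.0518% and -0.0737% of the reference at P0, and 8.20%, 7.69%, 0.906% and 0.958% at P10. The ages did not overlap for either miR-222 probe, as for 14.2% of the 204 detected miRNAs. The exact two-sided permutation test gave p = 0.0286 for each (n = 4 and 4), the smallest it allows, and 0.133 with the P10 pairs averaged. On the floored log2 scale the P10 values were -3.61 and -3.70 for the bright pair and at the floor for the other, with a mean of -4.77 ± 1.29 (SD, n = 4).

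The floored difference of miR-222 was 1.12, and it was not tested in the main fit because detection on all arrays of an age was required. With a filter of detection on at least 1 array it was 1.12 ± 0.61 (log2, SE; limma adjusted p = 0.290 over 204 miRNAs, of which 2.94% were called higher). Against the P0 limit the P10 mean of the longer probe was 1.07-fold higher, and 1.90-fold without P0 replicate 1. This probe was detected on only 2 of 4 P10 arrays. P10 replicates 3 and 4 entered at their undetected signal, so these ratios are not lower bounds. The shorter probe gave no ratio above 1, with or without P0 replicate 1. The unfloored P10 mean was -5.20 and the P0 limit -5.30 for the first of these ratios. The difference rested on P10 replicates 1 and 2: it was 2.08 ± 0.07 (limma adjusted p = 1.17e-05) without replicates 3 and 4, and 0.00 without replicates 1 and 2, where every remaining value was at the floor.

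Few miRNAs shared the detection pattern of miR-221. Detection on all P10 arrays and no P0 array was found for 4 of the 158 tested miRNAs (2.53%), namely miR-221, miR-31*, miR-539 and miR-99b*. The miRNAs other than miR-221 had floored differences of 0.72 to 1.67 (log2), and none of the 4 passed the limma threshold, with adjusted p from 0.132 to 0.312. The broader pattern that miR-222 also meets, detection on at least 1 P10 array and on no P0 array, covered 23 of the 204 detected miRNAs (11.3%).

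Both miRNAs were brighter on P10 replicates 1 and 2 than on P10 replicates 3 and 4, but how closely they moved together depended on the probe. The signal of the longer miR-221 probe divided by that of the longer miR-222 probe was 2.55 ± 0.05 and 2.60 ± 0.08 on P10 replicates 1 and 2 (SE from spots). On P10 replicates 3 and 4, where miR-222 was not detected, the ratio has only a bound, at least 2.39 and at least 1.87, and the measured values were 2.70 ± 0.15 and 2.32 ± 0.13. The shorter probes gave 2.63 and 2.92 on the bright arrays and 3.98 and 3.84 on the dimmer ones, again with miR-222 not detected on the latter. The longer probes thus gave similar ratios on both pairs and the shorter probes higher ratios on the dimmer pair. The scaled miR-221 signal was 8.56 times as high on replicate 1 as on replicate 3 and 8.96 times as high on replicate 2 as on replicate 4. For miR-222 the same steps were at least 8.01-fold and at least 6.46-fold. Probes differ in how strongly they bind, so no ratio here gives the relative abundance of the 2 miRNAs. No ratio was formed at P0, where miR-222 had no measurable signal.

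On the floored log2 scale the miR-221 minus miR-222 difference within an array was 0 on all P0 arrays and 0.92 ± 0.52 (SD, n = 4) at P10. The exact permutation test gave p = 0.0286 for this change, and 0.133 with the P10 pairs averaged. Both miRNAs are at the floor at P0, so the floor sets that side of the comparison, and the value was -4.66 (exact permutation p = 0.143) with no floor. The data therefore do not resolve whether miR-221 and miR-222 changed by different amounts.

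The opposite strands of the 2 hairpins, named miR-221* and miR-222* on the array and miR-221-5p and miR-222-5p in RefSeq, were also measured. They are shown because they carry other seeds than the main strands, again in capitals.
rno-miR-221-5p: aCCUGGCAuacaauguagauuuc
rno-miR-222-5p: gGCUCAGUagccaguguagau
Both miR-221* probes were below 0 on all 8 arrays, from -6.62 to -2.40 intensity units. The longer miR-222* probe gave -5.29 to -4.25 units at P0 and 14.6, 13.6, 2.61 and 0.690 units at P10, with the brighter values on the same 2 arrays as the main strands. On P10 replicates 1 and 2, 4 of 9 and 4 of 10 of its spots were well above background, short of the share that counts as detected. On P10 replicates 3 and 4 it lay below the mean of the negative control spots (4.52 and 3.80 units). The ages did not overlap for this probe, which was detected on no array (exact permutation p = 0.0286, n = 4 and 4, the smallest possible, and 0.133 with the P10 pairs averaged). The same held for 14.2% of the 204 detected miRNAs.

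The authors' deposited table, which sums the detected probes of each miRNA and writes 0.1 where none was detected, showed the same bright P10 pair. Its detection differed from the share of 0.5 used here. It held a signal above 0.1 for miR-221 on P0 replicate 2 and for miR-222 on P10 replicates 3 and 4. Those are not detected by the share used here. In the authors' deposited table the raw miR-221-3p signal was 0.1, 8.73, 0.1 and 0.1 at P0 and 152, 130, 33.4 and 30.5 at P10. The raw miR-222-3p signal in the authors' deposited table was 0.1 on every P0 array and 59.0, 47.9, 7.79 and 8.17 at P10. Tested with limma, the log2 values of the authors' deposited table gave a miR-221 difference of 6.99 ± 1.46 (SE, adjusted p = 0.0863). In that deposited table the undetected miR-221 values at P0 stood at -3.16 to -2.15 (log2), with no floor of the kind used here.

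The miRNAs whose levels ran most like those of the pair were compared over the 8 arrays. By Pearson's r of floored log2 values, the closest to miR-221 among the tested miRNAs were miR-214 (r = 0.999), miR-125b-5p (r = 0.994) and miR-134 (r = 0.994), and miR-222 itself stood at r = 0.992. The closest to miR-222 were miR-31* (r = 1.000), miR-214 (r = 0.993) and miR-221 (r = 0.992). These are descriptions over 8 points that share arrays, scaling and, for the lowest values, the floor, and they are dominated by the contrast of P10 replicates 1 and 2 with the other 6 arrays. For each of miR-221 and miR-222, 24 of the 157 other tested miRNAs reached r of at least 0.9. miR-214 is co-transcribed with miR-199a and is enriched in fibroblasts and other mesenchymal cells.

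miR-214 lay between -4.16 and -4.08 (log2) at P0 and at -0.25, -0.16, -3.64 and -3.71 at P10. Its difference was 2.17 ± 0.85 (SE, limma adjusted p = 0.140), and its P10 arrays divided as those of miR-221 did. miR-125b-5p, a broadly expressed relative of lin-4, lay between 0.24 and 0.54 at P0 and at 2.79, 2.73, 0.80 and 0.88 at P10 (difference 1.37 ± 0.49, SE, limma adjusted p = 0.115). miR-31*, the opposite strand of miR-31, was at the floor on 6 arrays and at -2.55 and -2.57 on P10 replicates 1 and 2. miR-134, from the imprinted Dlk1-Dio3 region, was at the floor at P0 and reached -5.14 at P10, a difference of 0.39 ± 0.24 (limma adjusted p = 0.298).

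**Figure D3:**
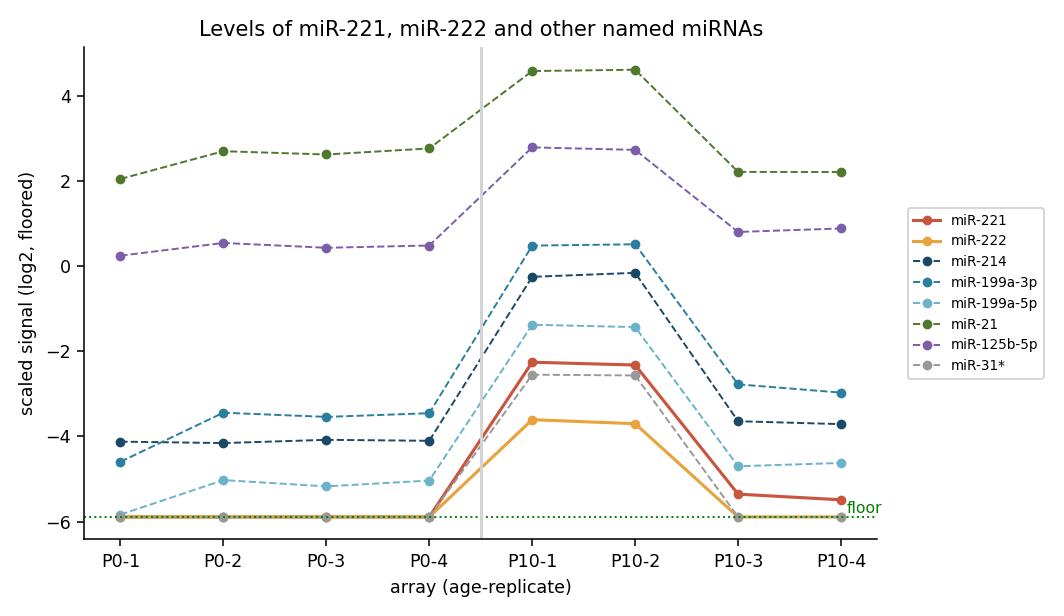
Floored log2 scaled signal of miR-221, miR-222 (solid lines) and 6 other named miRNAs (dashed lines) on each array, named by age and replicate; lines join the values of 1 miRNA and have no order in time, and the green dotted line is the floor (-5.89). All 8 miRNAs are highest on P10 arrays 1 and 2, and miR-21 on P10 arrays 3 and 4 lies above P0 array 1 and below the other P0 arrays.

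Markers of other cells moved with the bright and dim P10 arrays. The stromal list (miR-21, miR-199a-3p, miR-199a-5p and miR-214, enriched in fibroblasts) had positive differences for 4 of 4 members, with a median of 2.20 against 0.03 over all tested miRNAs, and 0 of 4 passed the threshold (limma adjusted p 0.0914 to 0.353). Its summed level was 4.24 to 6.96 times the reference signal at P0 and 26.5, 27.1, 4.89 and 4.86 times at P10. The bright P10 pair for miR-221 and miR-222 was thus also the pair with the high stromal sum, and the part of these cells in the result was not tested. On P10 replicates 3 and 4 the stromal sum, most of which is miR-21, lay within its P0 range only through the dim P0 replicate 1 (4.24). The other P0 arrays were higher, at 6.66, 6.31 and 6.96. The other 3 stromal members were, like miR-221, above every P0 array on P10 replicates 3 and 4. miR-214 was at -3.64 and -3.71 there, against at most -4.08 (log2) at P0. For miR-199a-3p it was -2.78 and -2.97 against -3.44, and for miR-199a-5p -4.70 and -4.62 against -5.03. All P10 arrays lay above all P0 arrays for 14.2% of the 204 detected miRNAs. In these bulk samples, fewer cells of a type and less RNA per cell cannot be told apart.

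miR-221 and miR-222 are also expressed by endothelial and smooth muscle cells, whose markers behaved differently. The endothelial miR-126 was higher at P10 by 2.17 ± 0.43 (log2, SE, limma adjusted p = 0.0216), at -5.89, -4.04, -4.21 and -4.11 on the P0 arrays and -2.02, -2.17, -2.65 and -2.75 on the P10 arrays. All P10 values of miR-126 were above all P0 values, as for 14.2% of the 204 detected miRNAs. The distance between the P10 pairs of miR-126 was less than for miR-221. Its sister strand miR-126* was at the floor on all 8 arrays. Of the smooth muscle markers, miR-143 was lower at P10 by 0.92 on the log2 scale (difference -0.92 ± 0.23, SE, limma adjusted p = 0.0434). The other, miR-145, did not pass (1 of 2 lower, 0 higher, against 4.43% each over all tested miRNAs). The summed smooth muscle level was 1.37 to 2.17 times the reference at P0 and 0.852 to 1.17 times at P10. The part of either cell type in the miR-221 and miR-222 values was not tested.

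The muscle list holds markers of the labelled cell type, together with miR-206, which is known from skeletal muscle. Its summed level, most of which is miR-1 and miR-133b, was 11.8 to 17.1 times the reference at P0, and at P10 it was 10.2 and 9.32 times on the replicates where miR-221 and miR-222 were bright and 19.9 and 20.7 times on the others. Of its 6 tested members 1 was higher and 0 were lower, against 4.43% each over all tested miRNAs. The differences ran from -0.75 to 1.14 (log2) with a median of -0.10. Only 2 of the 6 were positive, those of miR-206 and miR-208. miR-206 ran the other way from the sum, at -3.52, -4.04, -4.71 and -5.29 on the P10 arrays and -5.89 to -4.57 at P0 (difference 1.05 ± 0.45, SE, limma adjusted p = 0.158). The member that passed was miR-208, hosted by a cardiac myosin heavy chain gene (difference 1.14 ± 0.25, SE, limma adjusted p = 0.0285). It was at the floor on every P0 array. All 6 muscle markers were detected on at least 1 array of each age.

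Blood cell markers were mostly dim. Of the leukocyte list, 5 of 6 names were matched on the array and 2 were tested, with 1 higher and 0 lower (4.43% each over all tested miRNAs). miR-146a, induced in immune and endothelial cells, was at the floor at P0 and at -3.07, -3.16, -5.02 and -4.89 at P10 (difference 1.85 ± 0.48, SE, limma adjusted p = 0.0434), with the same bright pair as miR-221. The other tested member, miR-223 of the myeloid lineage, did not pass (difference -0.24 ± 0.69, SE, limma adjusted p = 0.836). It was at -2.41 on P0 replicate 1, which makes most of the highest P0 sum, between -5.50 and -4.86 on the other P0 arrays, and at -4.19, -4.08, -5.40 and -5.43 at P10. miR-142-5p and miR-150 were at the floor on all 8 arrays, although miR-150 was detected on 1 P0 and 1 P10 array. miR-142-3p was above the floor only on P10 replicates 1 and 2, at -4.87 and -4.86. The summed level of the 2 tested leukocyte members, with miR-146a entering at the floor at P0, was 0.0390 to 0.205 times the reference at P0. At P10 that sum was 0.174, 0.171, 0.0545 and 0.0569 times the reference. Of the erythroid list, miR-144 was at the floor on all 8 arrays and miR-451 was not tested. miR-451 was detected on 3 P0 and 2 P10 arrays. It was at -5.89, -4.90, -5.39 and -5.15 at P0 and at -5.89, -5.89, -5.80 and -5.88 at P10, without the bright pair of miR-221. The part of blood cells in the pair's values was not tested.

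Other miRNAs known to act on the cell cycle were also compared between the ages. In the seed family of miR-17, which represses the CDK inhibitor gene Cdkn1a, 0 of 5 tested members were higher and 0 were lower, and the differences ran from -0.04 to 0.36 (log2) with a median of 0.25. The summed level of that family was 0.969 to 1.66 times the reference at P0 and 2.32, 2.30, 1.13 and 1.08 times at P10, higher on the P10 arrays where miR-221 and miR-222 were bright. In the miR-15 family, which represses cyclin genes, 2 of 5 were higher and 0 lower, with a median of 0.16. Its summed level was 1.84 to 2.84 times the reference at P0 and 3.78, 3.75, 2.29 and 2.05 times at P10, with the same bright pair. Those that passed were miR-497 (difference 2.30 ± 0.29, SE, limma adjusted p = 0.00503) and miR-195 (difference 2.12 ± 0.31, SE, limma adjusted p = 0.00694), which are clustered, miR-195 being known from mouse heart to rise after birth. The median over all 158 tested miRNAs was 0.03, 81 differences were positive, and 4.43% passed with a higher and 4.43% with a lower P10 level. Differences between these lists and the pair were not tested.

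**Figure D4:**
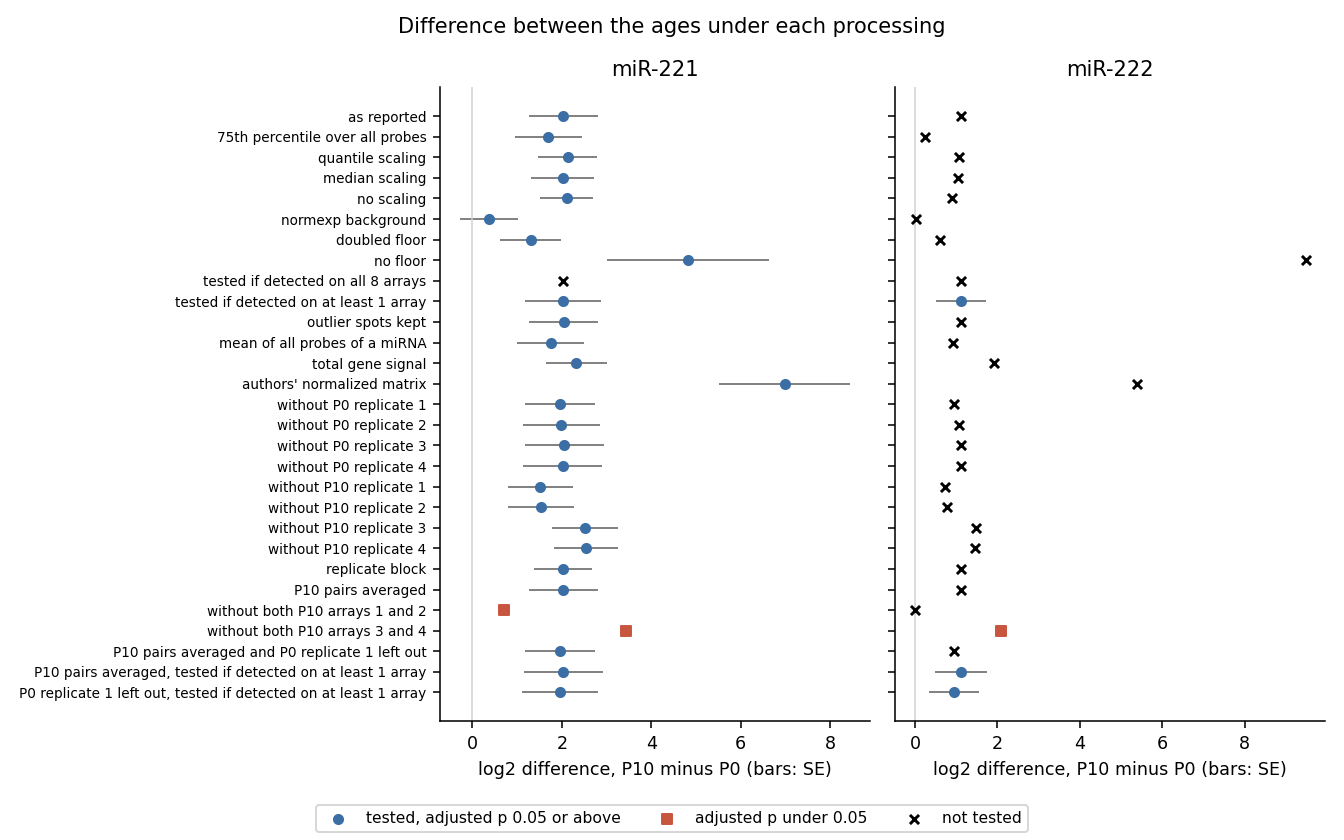
Log2 difference P10 minus P0 of miR-221 (left) and miR-222 (right) under each processing, with bars for the SE where the miRNA was tested; blue circles have an adjusted p of 0.05 or above, red squares one under 0.05, and crosses were not tested. For miR-221 the value was above 0 under every setting drawn, from 0.36 to 6.99, and passed the threshold only without 1 of the P10 pairs. Where all P0 values are at the floor, as in the main fit, a value below 0 is not possible.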

How the data were processed

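The scanner files hold spot intensities on a linear scale. Per the file headers, Agilent Feature Extraction 10.7.1.1 subtracted a spatially detrended background within each array and did not scale between arrays, so intensity can fall below 0. The deposited spot table held the same intensity values within 0.493%. The authors' deposited matrix holds log2 values, with the method of normalization not given in the sources used here. Per the file headers, the other scanner columns are flags of 0 and 1 for spots.

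The spots of a probe were averaged without those marked as outliers. Signals were divided by the 75th percentile of 111 probes, floored and log2 transformed, and a miRNA was represented by its brightest probe on average. miRNAs detected on all 4 arrays of an age were tested with limma 3.58.1 in R 4.3.3 (158 of 677, miR-221 included and miR-222 not). Exact permutation tests used scipy 1.17.1. The limma step was tested on simulated data. Array number limits the precision.

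The members, lists and tests were chosen with earlier results of these data known. The named miRNAs are both members with their opposite strands, the 3 most alike by r for each, and the list members. Of the lists, the stromal members and those past the threshold are given one by one, a restriction made after their values were seen, together with miR-206, miR-223, miR-126*, miR-145 and the blood cell markers near the floor. miR-539 and miR-99b* were likewise named after their values were seen. Alternatives covered scaling, floor, background, filter, spots, probes, the authors' matrix, left-out arrays, averaged pairs and a replicate block.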

Additional observations from a re-analysis of the deposited data

Results flagged for a closer look

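P0 replicate 1 lay far below the other 3 P0 arrays in the scaled signal of all 4 probes. It was at -1.01% of the reference for the longer and -1.06% for the shorter miR-221 probe, and at -2.11% for the longer and -4.94% for the shorter miR-222 probe. The other P0 arrays lay between 0.316% and 0.990% for the miR-221 probes and between -0.475% and 0.0518% for the miR-222 probes. Chance alone marks about 1 in 20 groups of this size, and the 4 probes share their arrays. The reference signal of P0 replicate 1 was 116 intensity units, and that of the other P0 arrays 806 to 1326. Before scaling, the longer miR-221 probe was at -1.17 units there and the longer miR-222 probe at -2.44 units, both below the mean of the negative control spots of that array (4.13 units). The cause was not tested.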

How the results depend on the processing

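miR-221 kept a positive difference under all 28 alternatives, from 0.36 ± 0.65 (normexp background) to 6.99 (authors' matrix), and adjusted p ran from 2.27e-06 to 0.881. Where all P0 values are at the floor, as in the main fit, the difference cannot be below 0. The constant sign is therefore no check in such settings. With no floor the miR-221 difference was 4.82 ± 1.82 (SE, limma adjusted p = 0.152). The normexp setting added an offset of 50 intensity units. That is more than the longer miR-221 probe gave at P0 (at most 13.1) or on P10 replicates 3 and 4 (31.2 and 28.3). Such an offset shrinks the log2 differences of dim miRNAs. miR-221 passed the threshold only without P10 replicates 1 and 2 (0.71) or 3 and 4 (3.44). Leaving out single arrays gave 1.52 to 2.53 for miR-221 and 0.74 to 1.48 for miR-222. miR-222 ran from 0.00 to 9.48, where the latter has no floor and rests on values set for signals at or below 0, and of the 4 alternatives in which it was tested it passed in 1, without P10 replicates 3 and 4 (2.08). The change of the within-array difference was 0.34 with normexp, 0.68 with a doubled floor, -4.66 with no floor, 1.59 in the authors' matrix, 0.92 with P10 pairs averaged (also with the looser filter), 1.00 with P0 replicate 1 left out too, 0.71 without P10 replicates 1 and 2, 1.36 without 3 and 4 and 0.77 to 1.07 without single arrays, and passed in none of these.

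Counts of miRNAs higher and lower at P10 (7 and 7) were 0 and 0 with the percentile over all probes, normexp, total gene signal or averaged P10 pairs, where 14, 22, 35 and 26 had an unadjusted p under 0.05 in limma. They were 11 and 0 with no scaling, 1 and 3 with no floor, 4 and 4 with the mean of all probes, 1 and 0 in the authors' matrix, 2 to 25 and 2 to 46 without single arrays, and 50 and 26 without P10 replicates 3 and 4. A doubled floor gave 15 lower, the filter of at least 1 array 14 lower, detection on all 8 arrays 2 higher, and averaged pairs without P0 replicate 1 gave 21 lower. Settings chosen after seeing the data, both with the filter of at least 1 array, gave 2 and 3 with averaged pairs and 24 and 41 without P0 replicate 1. In these miR-221 had adjusted p of 0.374 and 0.132, and miR-222 0.473 and 0.292. Without P0 replicate 1 alone the counts were 25 and 46. Total gene signal, the scanner's own total for a miRNA, did not match the probe totals everywhere. For miR-222 on P10 replicates 3 and 4 it was 41.2 and 38.6 units, where its probe totals summed to 10.9 and 11.2. Counts and signs with total gene signal, here and below, carry that limit.

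The median of all tested miRNAs moved from 0.03 to 0.36 with the percentile over all probes, 0.35 with no scaling, -0.10 with quantile scaling, -0.25 with normexp and 0.43 in the authors' matrix. Signs turned for miR-134 (-0.22 with the percentile over all probes, -0.27 with normexp), miR-143 (0.25 with that percentile), miR-195 and miR-497 (-1.49 and -0.40 with total gene signal), miR-208 and miR-206 (-0.072 and -0.091 with normexp), miR-223 (0.21 with that percentile, 0.28 with no scaling, -0.58 to 0.28 without single arrays, 0.28 in the other settings without P0 replicate 1 and 0.38 without P10 replicates 3 and 4) and miR-21 (-0.32 without P10 replicates 1 and 2). The cause was not tested.

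Deviations from the age mean were not closely correlated between samples of the same replicate number (0.16, -0.15, 0.03 and 0.14 for replicates 1 to 4). These values cannot settle whether samples were paired, because the P10 pairs and the dim P0 replicate 1 make much of the spread. With the replicate block miR-221 was 2.03 ± 0.65 (limma adjusted p = 0.119), and 3 miRNAs were higher and 1 lower.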
